A study of Homo sapiens with 48 samples.

Results

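The subunits of the respiratory chain and of ATP synthase that are encoded in the nucleus were examined in K562 cells, an established human leukaemia line that carries the BCR-ABL1 kinase. Members were the genes whose annotated symbol begins with NDUFA, NDUFB, NDUFC, NDUFS or NDUFV (complex I), SDHA to SDHD (complex II), UQCR (complex III), COX4 to COX8 (complex IV), or ATP5F1, ATP5M or ATP5P (ATP synthase, complex V), together with CYC1 and CYCS. This rule gave 67 of 11963 genes, measured by 100 of 22215 probe sets: 28 genes of complex I, 3 of complex II, 7 of complex III, 13 of complex IV, 15 of complex V and the gene of cytochrome c. A further 9 probe sets with several symbols and 2 of a pseudogene and an antisense RNA were kept apart. In the imatinib group, K562 cells received 1 micromolar imatinib, an inhibitor of BCR-ABL1, for 24 hours. The mock group was the same line after mock treatment. The 48 Affymetrix arrays fall into 8 sets, A to H, whose meaning the labels do not give, and each set holds 3 imatinib and 3 mock samples. All samples come from 1 cell line, and nothing in the labels says that they were separate cultures, so the p-values below cover only how these samples vary among themselves, and that variation may be technical.

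The respiratory chain lies in the inner membrane of mitochondria. Complexes I and II pass electrons from NADH and succinate to ubiquinone, complex III passes them on to cytochrome c, and complex IV passes them to oxygen, while complexes I, III and IV pump protons that drive ATP synthase. All members are nuclear genes, and the subunits encoded in mitochondrial DNA were not analysed here. Cytochrome c also acts outside the chain, in the activation of caspases once it leaves the mitochondrion. Erythroid cells need functioning mitochondria to make heme.

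The RNA of imatinib samples was isolated with a column alone and that of mock samples with Trizol followed by a column, and a smaller amount of spike control RNA went into the imatinib samples, per the labels. Both differences run along with treatment in every set, so treatment, isolation and spike amount cannot be told apart. Mock treatment is also named among the keywords of imatinib samples, but the titles and descriptions give imatinib and were followed. Mean array levels lay between 5.88 and 7.61 on the log2 scale over all samples and differed by at most 0.053 within a set, so comparisons were made within sets. The mean level of the 6 measured erythroid markers was 10.9 to 12.5 over the imatinib samples and 9.22 to 11.04 over the mock samples. Not each of these markers was high, since TAL1 averaged 6.92 in mock samples. All 6 rose after imatinib. Of the T cell markers, CD3D averaged 6.39 in imatinib and 8.12 in mock samples, and the mean level of the 4 T cell markers was lower in imatinib samples of all 8 sets, with differences of -0.55 to -0.17, while in the combined fit the change was -1.73 for CD3D and those of CD3E, CD2 and CD8A were 0.17, 0.09 and 0.09, the last 2 not called. B cell, monocyte and fibroblast or epithelial markers differed by at most 0.15 in mean level in any set, but single markers moved more. The monocyte marker LYZ, at a level below the median, fell by 0.44 in the combined fit and was lower in all 8 sets. On their brightest probe sets ITGAM and FCN1 rose by 0.09 and 0.11, and CD14, at 0.08, was not called. On these arrays the difference between the 3' and 5' control probe sets of ACTB, a measure of RNA integrity, was greater in imatinib samples of 6 of 8 sets (mean difference 0.15 ± 0.19, SD, n = 8 sets, exact sign-flip permutation p = 0.046875). For GAPDH it was greater in 4 of 8 (0.02 ± 0.08, SD, n = 8 sets, exact sign-flip permutation p = 0.53125). The part of these differences in the results below was not tested.

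Subunit transcripts moved in both directions after imatinib, mostly by small amounts, and a few fell or rose clearly. Cytochrome c (CYCS), the complex I subunits NDUFS6, NDUFS1 and NDUFAB1 and the ATP synthase subunit c gene ATP5MC1 fell in every set, and COX7A2L, a factor of respiratory supercomplexes, rose in every set. In the combined limma fit of 24 imatinib against 24 mock samples, 41 member probe sets were higher, 34 lower and 25 not called at an adjusted p of 0.05. The 75 called compare with 65.2% of all tested probe sets (39.3% higher and 25.8% lower), and with 80.3% of those at or above the median level, where 93 members lay and 69 of these were called. The median log2 change was 0.03 for members and 0.05 for all probe sets. In absolute size the median was 0.14 for members and 0.12 for all probe sets, so small changes were not particular to the members. The balance of directions depended on the scaling between arrays: 29 members were higher and 42 lower with arrays centred on their median (27.9% and 29.9% of all probe sets), and 49 were higher and 20 lower after quantile normalization within sets (33.3% and 25.9% of all probe sets). The share of higher among called members was 54.7% as deposited, 40.8% centred and 71.0% quantile-normalized, and over all probe sets it was 60.4%, 48.3% and 56.2% in the same order of settings. The median over all probe sets was 0.05 as deposited, 0.01 centred and 0.02 after quantile normalization. Counted as genes by their brightest probe set, 22 were higher and 30 lower (background 41.6% and 27.1% of all genes), against 15 and 36 centred and 28 and 18 after quantile normalization, so the balance of genes turned as well. A change in a bulk sample cannot tell less RNA per cell and fewer cells of a type apart.

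**Figure D1:**
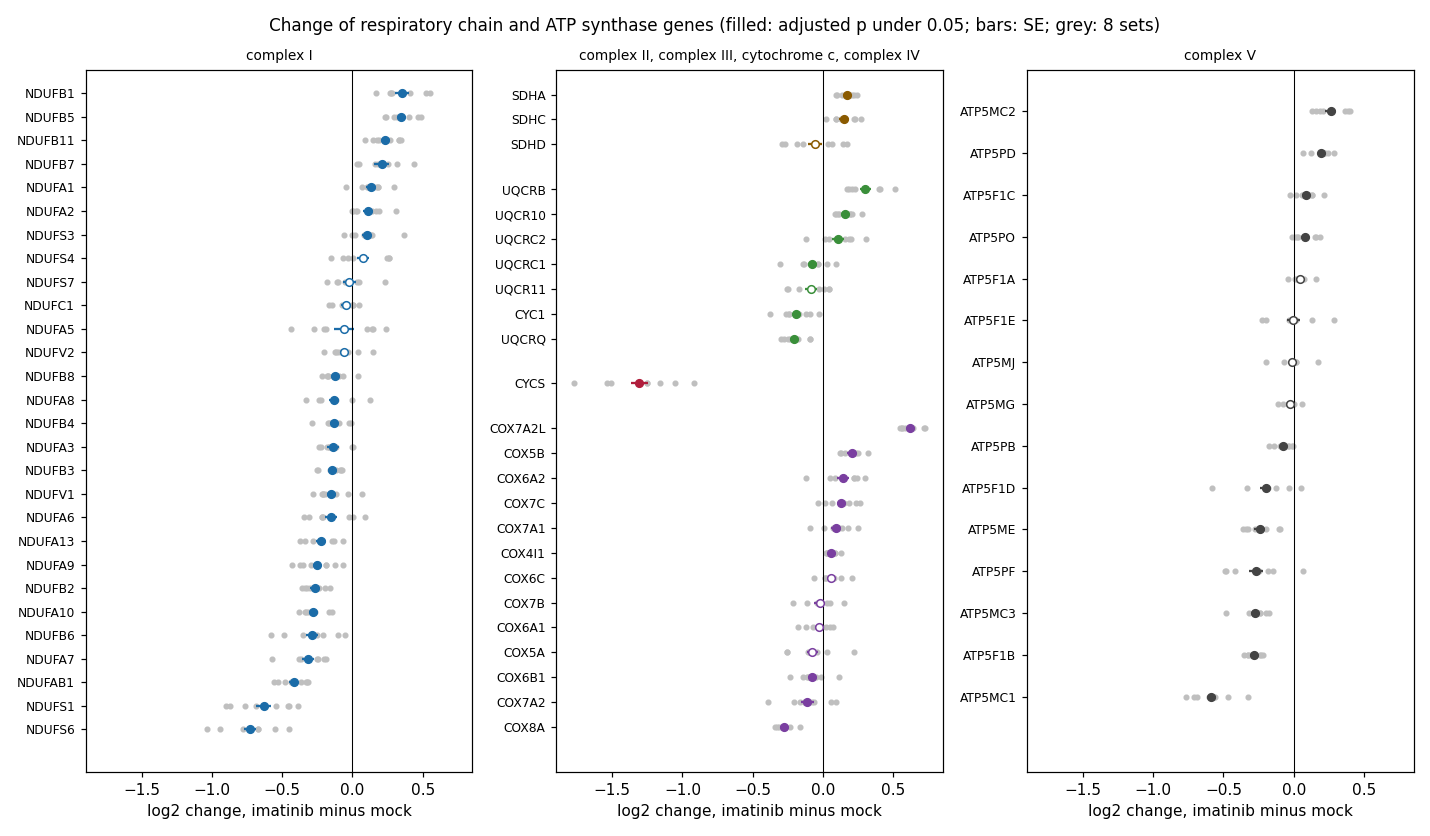
Log2 change (imatinib minus mock) of each of the 67 genes by its brightest probe set, with the standard error as a bar, filled where adjusted p was under 0.05, and the 8 sets as grey points. CYCS stands lowest at -1.31 and COX7A2L highest at 0.62, and most other genes lie close to 0.

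Most changes were far below 2-fold. An absolute log2 change of at least 1 was reached by 1 called member (CYCS), against 3.63% of all probe sets. Of the 100 members 89 changed by less than 0.3, and the share of all probe sets below 0.3 was not taken. The same sign in all 8 sets together with a call was found for 45 members, 23 higher and 22 lower, against 38.8% of all probe sets. The imatinib and mock samples did not overlap in any of the 8 sets for 8 lower members (8.6% of all probe sets) and 3 higher ones (5.43%). The 8 lower ones were CYCS, NDUFS6, NDUFS1, NDUFAB1, ATP5MC1, ATP5MC3, ATP5F1B and COX8A, and the 3 higher ones were COX7A2L, ATP5PD and a probe set of UQCRB. Fitted alone, set A called 27 members (28.3% of all probe sets), set B 40 (47.7%), set C 38 (39%), set D 31 (38.9%), set E 14 (19.4%), set F 15 (16.5%), set G 14 (27.5%) and set H 20 (24.1%). With each set reduced to 1 difference, 60 members were called, against 55.1% of all probe sets. No member was called in opposite directions in different sets, and 35 were called in none of them. These counts were not made over all probe sets, so they show nothing particular to the members.

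The transcription factors NRF1, GABPA and YY1 are known regulators of nuclear respiratory genes, so the promoters of the members were searched for the letters that these factors and the E-box proteins are known to prefer. RefSeq promoters of build GRCh38.p14, which span 250 bases before and 50 bases after a gene's start, were matched for 58 of the 67 genes (71 promoters). In all, 10 short letter strings were searched on both strands, and the 4 described below were chosen after their counts were seen, so the shares are descriptions only. The sequences printed were likewise chosen after the changes were known: CYCS had the largest fall, and NDUFS1 and ATP5MC1 were the genes with an absolute log2 change of at least 0.5 whose promoters held a described string. The consensus of NRF1, with any base at its middle position, was found in the promoters of 13 member genes (22.4%, against 6.98% of all genes in the table), the ETS and GABPA string CCGGAAGT in 10 (17.2%, against 4.95%), the YY1 string AAGATGGC in 11 (18.97%, against 3.52%) and the E-box CACGTG in 6 (10.3%, against 8.77%). The 6 other strings, of which several contain or lie within these 4, were found in between 1.72% and 63.8% of member genes, against 0.432% to 48.3% of all genes, and in each case in a larger share of the members. The median GC content was 59.3% for member promoters and 58.7% for all. The shares of all genes cover the 27305 genes of the promoter table, whether or not these arrays measure them. Of the 67 member genes 65 lay at or above the median level, and shares among genes of a like level were not taken. The larger shares can therefore not be called particular to respiratory genes. Promoters of CYCS (minus strand, 1 start in the table), NDUFS1 (minus strand, the first of 2 starts) and ATP5MC1 (plus strand, 1 start) follow in the gene's own direction, with capitals at a match.
CYCS chr7:25125211-25125510: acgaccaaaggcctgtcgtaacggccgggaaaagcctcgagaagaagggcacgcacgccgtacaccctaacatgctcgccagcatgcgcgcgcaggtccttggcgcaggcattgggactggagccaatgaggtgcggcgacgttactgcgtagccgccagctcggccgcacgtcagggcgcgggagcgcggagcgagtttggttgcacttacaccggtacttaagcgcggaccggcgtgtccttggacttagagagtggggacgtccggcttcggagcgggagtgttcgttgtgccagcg
NDUFS1 chr2:206159395-206159694: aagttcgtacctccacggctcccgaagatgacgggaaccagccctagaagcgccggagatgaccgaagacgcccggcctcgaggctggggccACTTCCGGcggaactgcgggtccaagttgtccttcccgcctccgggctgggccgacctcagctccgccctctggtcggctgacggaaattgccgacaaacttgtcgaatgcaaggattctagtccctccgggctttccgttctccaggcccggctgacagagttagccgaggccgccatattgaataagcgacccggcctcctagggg
ATP5MC1 chr17:48892537-48892836: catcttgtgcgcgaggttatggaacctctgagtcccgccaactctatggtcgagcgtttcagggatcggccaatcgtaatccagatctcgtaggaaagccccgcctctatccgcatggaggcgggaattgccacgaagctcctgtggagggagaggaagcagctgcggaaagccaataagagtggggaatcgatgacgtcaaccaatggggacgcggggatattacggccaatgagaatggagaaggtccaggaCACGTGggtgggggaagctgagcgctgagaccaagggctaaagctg

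The CYCS window held none of the 4 strings. Only exact matches were counted, apart from the open middle base of the NRF1 string, so a missing match does not show that a site is absent. The NDUFS1 window held the ETS and GABPA string in its reverse form, beginning at position -158 from the gene's start. The ATP5MC1 window held the E-box from base 5 after its start. The 11 genes with the YY1 string are shown because most matches lay just after the gene's start, and each window gives up to 11 bases on either side of the capitals.
ATP5PB (chr1:111449451-111449480, plus strand): acttgtgagcgGCCATCTTggtcctgccct
ATP5PF (chr21:25735093-25735122, minus strand): taggcgaagaaAAGATGGCggaggctgtgc
ATP5PO (chr21:33915755-33915777, minus strand): ccgcccgggagAAGATGGCtgcc
NDUFA3 (chr19:54102865-54102894, plus strand): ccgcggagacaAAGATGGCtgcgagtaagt
NDUFA6 (chr22:42090729-42090758, minus strand): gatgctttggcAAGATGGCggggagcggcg
NDUFA7 (chr19:8321343-8321372, minus strand): atcgcggacggAAGATGGCgtccgccaccc
NDUFA9 (chr12:4649113-4649142, plus strand): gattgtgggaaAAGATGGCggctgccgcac
NDUFB8 (chr10:100529836-100529865, minus strand): tgaagaaggtgAAGATGGCggtggccaggg
NDUFS4 (chr5:53560649-53560678, plus strand): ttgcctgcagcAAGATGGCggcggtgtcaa
NDUFS7 (chr19:1383913-1383942, plus strand): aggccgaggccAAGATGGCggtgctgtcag
UQCRC1 (chr3:48609605-48609634, minus strand): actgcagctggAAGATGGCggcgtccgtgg
In 9 of these 11 genes the string began between bases 11 and 39 after the start. Of the 11 genes 8 were called lower, 1 higher and 2 not, but the split was 8 lower and 0 higher with centred arrays and 3 lower and 3 higher after quantile normalization. A match of letters is not a binding site, and nothing about the factors follows from it.

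CYCS encodes cytochrome c, which carries electrons from complex III to complex IV. Its transcript, on 1 probe set, was lower in every imatinib sample than in every mock sample of the same set. In set A its level was 9.41, 9.19 and 9.30 in imatinib samples, against 10.46, 10.60 and 10.32 in mock samples. In set B its level was 11.20, 11.41 and 11.23 in imatinib samples, against 12.61, 12.50 and 12.48 in mock samples. In set C its level was 10.07, 10.19 and 10.11 in imatinib samples, against 11.45, 11.68 and 11.86 in mock samples. The groups lay further apart in set C than in A. In set D its level was 10.05, 10.43 and 10.52 in imatinib samples, against 11.91, 11.71 and 11.91 in mock samples. In set E its level was 9.43, 8.71 and 9.37 in imatinib samples, against 11.24, 10.81 and 10.78 in mock samples. Imatinib replicate 2 of set E stood below the other 2 imatinib samples of that set. In set F its level was 10.58, 10.06 and 10.46 in imatinib samples, against 11.32, 11.42 and 11.51 in mock samples. In set G its level was 11.46, 11.39 and 11.34 in imatinib samples, against 12.35, 12.47 and 12.13 in mock samples. In set H its level was 10.27, 10.37 and 10.54 in imatinib samples, against 11.62, 11.79 and 11.52 in mock samples. CYCS averaged 10.30 in imatinib and 11.60 in mock samples, and fell by 1.31 ± 0.06 log2 (SE, n = 24 each, limma adjusted p = 2.49e-24), to 40.4% of the mock level. The fall was called in each of the 8 sets fitted alone and lay between -1.77 in set E and -0.92 in set G. It ranged between sets by more than the spread between samples (limma adjusted p = 0.0396 for the set-by-treatment terms), a difference found for 3 members in all, against 7.2% of all probe sets. CYC1, the cytochrome c1 of complex III that hands electrons to it, fell by 0.19 (limma adjusted p = 3.41e-07). HCCS, the enzyme that attaches heme to both cytochromes, fell by 0.52 (limma adjusted p = 1.89e-17), while its dimmer probe set, at -0.11, was not called. HCCS was singled out after its values were seen.

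**Figure D2:**
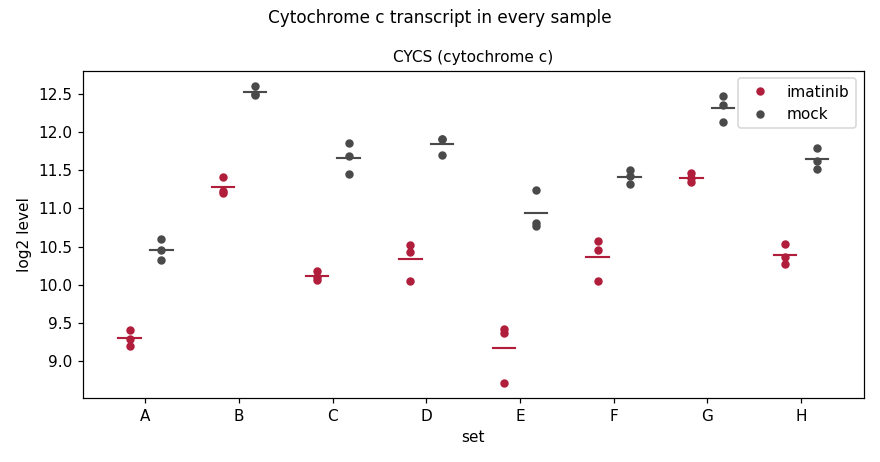
Log2 level of the CYCS transcript in each of the 48 samples, with imatinib samples left of mock samples within each of the 8 sets and a bar at each group mean. In every set all imatinib samples lie below all mock samples.

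Complex I, which oxidises NADH, is the largest group and held the most members that fell. Of its 35 probe sets 17 were lower and 11 higher (25.8% and 39.3% of all probe sets), with a median of -0.08. With centred arrays 20 were lower and 7 higher (29.9% and 27.9% of all). After quantile normalization 9 were lower and 12 higher (25.9% and 33.3% of all), so the direction of the balance turned with that scaling. As genes, 16 were lower and 7 higher of 28 (27.1% and 41.6% of all genes). The gene counts were 18 and 5 centred and 9 and 10 after quantile normalization. Over all 11963 genes they were 3653 and 3644 centred and 3122 and 4357 after quantile normalization. Among the 5 measured core catalytic subunits, NDUFS1 and NDUFV1 fell, NDUFS3 rose and NDUFV2 and NDUFS7 were not called. Centred arrays gave 3 lower and 0 higher core genes and quantile normalization 1 and 2. The call of NDUFS3 was lost with centred arrays and with 1 value per set, and that of NDUFV1 after quantile normalization. Of 23 accessory genes, whose proteins surround the core, 14 were lower and 6 higher, against 15 and 5 centred and 8 and 8 after quantile normalization.

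The largest fall in complex I was that of NDUFS6, an accessory subunit near the NADH-oxidising end. NDUFS6 had 8.56, 8.52 and 8.61 in imatinib samples of set A, against 9.24, 9.40 and 9.07 in its mock samples, and 10.04, 10.22 and 10.14 in imatinib samples of set B, against 10.72, 10.88 and 10.83 in its mock samples. NDUFS6 had 9.04, 9.16 and 8.92 in imatinib samples of set C, against 9.95, 10.05 and 9.95 in its mock samples, and 9.09, 9.12 and 8.85 in imatinib samples of set D, against 10.19, 9.89 and 10.09 in its mock samples. The groups stood furthest apart in set D. NDUFS6 had 8.55, 8.19 and 8.34 in imatinib samples of set E, against 9.04, 9.10 and 9.14 in its mock samples, and 9.02, 9.32 and 9.44 in imatinib samples of set F, against 9.66, 9.87 and 9.59 in its mock samples. NDUFS6 had 10.14, 10.14 and 10.19 in imatinib samples of set G, against 10.75, 11.15 and 10.91 in its mock samples, and 8.86, 9.24 and 8.99 in imatinib samples of set H, against 9.63, 9.59 and 9.53 in its mock samples. The 2 groups were separate in all 8 sets, and closest in set F. NDUFS6 fell by 0.73 ± 0.04 log2 (SE, n = 24 each, limma adjusted p = 6.89e-20), to 60.3% of the mock level.

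NDUFS1, the large iron-sulphur subunit on the path of electrons to ubiquinone, was also lower. NDUFS1 had 7.59, 7.76 and 7.79 in imatinib samples of set A, against 8.10, 8.16 and 8.24 in its mock samples, and 8.79, 8.86 and 8.80 in imatinib samples of set B, against 9.62, 9.46 and 9.42 in its mock samples. NDUFS1 had 7.58, 7.80 and 7.57 in imatinib samples of set C, against 8.36, 8.71 and 8.58 in its mock samples, and 7.96, 7.76 and 7.86 in imatinib samples of set D, against 8.73, 8.42 and 8.72 in its mock samples. Imatinib samples again lay below mock samples without overlap. NDUFS1 had 7.37, 6.50 and 6.92 in imatinib samples of set E, against 7.83, 7.74 and 7.82 in its mock samples, and 8.05, 7.82 and 8.04 in imatinib samples of set F, against 8.58, 8.31 and 8.39 in its mock samples. NDUFS1 had 9.01, 8.92 and 8.92 in imatinib samples of set G, against 9.35, 9.80 and 9.33 in its mock samples, and 8.01, 8.12 and 8.26 in imatinib samples of set H, against 8.47, 8.67 and 8.42 in its mock samples. The widest spread was that of the imatinib samples of set E. NDUFS1 fell by 0.63 ± 0.05 log2 (SE, n = 24 each, limma adjusted p = 2.02e-15), to 64.5% of the mock level.

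NDUFAB1, the mitochondrial acyl carrier protein that is also a complex I subunit, fell by 0.42 (limma adjusted p = 1.28e-16), by between 0.32 and 0.56 in the sets. NDUFA7, an accessory subunit, fell by 0.31 (limma adjusted p = 1.07e-08) in all 8 sets. On the other side, NDUFB1 rose by 0.35 (limma adjusted p = 1.67e-08) and NDUFB5 by 0.35 (limma adjusted p = 3.79e-13), both accessory subunits of the membrane arm. NDUFB11 rose by 0.23 and NDUFB7 by 0.21, also in all 8 sets. The other complex I genes lay between -0.29 (NDUFB6) and 0.13 (NDUFA1) on their brightest probe sets. Probe sets of 2 genes were called in opposite directions: the brightest of NDUFA6 was -0.15 and a dimmer one 0.19, and the brightest of NDUFB8 was -0.13 and a dimmer one 0.15. The gene counts above take the brightest probe set, by which both are lower, and after quantile normalization neither was called.

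**Figure D3:**
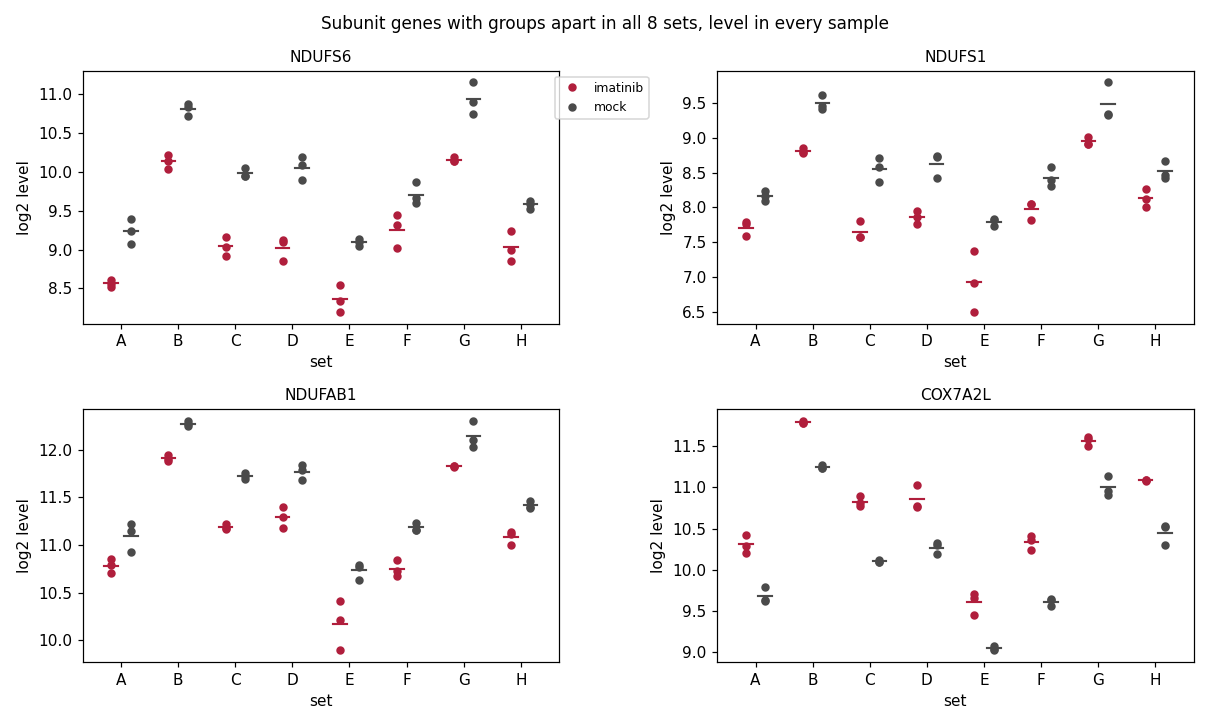
Log2 level of NDUFS6, NDUFS1, NDUFAB1 and COX7A2L in each of the 48 samples, imatinib left of mock in each of the 8 sets, with a bar at each group mean. Imatinib samples lie below mock samples in every set for the first 3 genes and above them for COX7A2L.

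Of the 7 probe sets of complex II, which oxidises succinate, 6 were higher and 0 lower (39.3% and 25.8% of all probe sets). Several of them measure the same gene. As genes, 2 of 3 were higher and 0 lower, and SDHB had no member probe set. The median of the 7 probe sets was 0.15, 0.11 with centred arrays and 0.29 after quantile normalization, with 5 and 6 higher probe sets. The flavoprotein SDHA rose by 0.17 (limma adjusted p = 1.32e-07). SDHC, a membrane anchor, rose by 0.15 on its brightest probe set (limma adjusted p = 0.000712) and by 0.11 to 0.20 on its 3 others. SDHD, the other anchor, had a change of -0.06 on its brightest probe set that was not called (limma adjusted p = 0.291), and a dim probe set rose by 0.14.

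Complex III had 5 higher and 3 lower of 10 probe sets (39.3% and 25.8% of all probe sets). The split was 4 and 4 with centred arrays and 6 and 2 after quantile normalization. UQCRB, an accessory subunit that helps to bind ubiquinone, rose by 0.30 on its brightest probe set (limma adjusted p = 3.96e-09) and by 0.30 and 0.44 on its other 2. UQCR10, also accessory, rose by 0.16 (limma adjusted p = 3.36e-06). UQCRQ, another accessory subunit, fell by 0.20 (limma adjusted p = 9.69e-09), in all 8 sets, as did CYC1. The large core proteins went opposite ways by small amounts, with a fall of -0.08 for UQCRC1 and a rise of 0.11 for UQCRC2, and UQCR11, at -0.09, was not called (limma adjusted p = 0.0587). The calls of both core proteins were lost with 1 value per set, that of UQCRC1 also after quantile normalization and that of UQCRC2 with centred arrays.

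Complex IV, which reduces oxygen, had 11 higher and 3 lower of 20 probe sets (39.3% and 25.8% of all probe sets). The split was 8 and 5 with centred arrays and 11 and 1 after quantile normalization. COX7A2L, which joins complexes III and IV in supercomplexes, had the largest rise of all members. COX7A2L had 10.43, 10.21 and 10.29 in imatinib samples of set A, against 9.63, 9.79 and 9.63 in its mock samples, and 11.78, 11.81 and 11.78 in imatinib samples of set B, against 11.27, 11.24 and 11.23 in its mock samples. COX7A2L had 10.77, 10.81 and 10.89 in imatinib samples of set C, against 10.10, 10.10 and 10.12 in its mock samples, and 11.02, 10.77 and 10.76 in imatinib samples of set D, against 10.30, 10.19 and 10.32 in its mock samples. Imatinib samples stood above mock samples in these sets. COX7A2L had 9.71, 9.45 and 9.66 in imatinib samples of set E, against 9.02, 9.07 and 9.04 in its mock samples, and 10.41, 10.24 and 10.37 in imatinib samples of set F, against 9.63, 9.65 and 9.56 in its mock samples. COX7A2L had 11.59, 11.60 and 11.50 in imatinib samples of set G, against 10.96, 11.14 and 10.90 in its mock samples, and 11.09, 11.08 and 11.09 in imatinib samples of set H, against 10.29, 10.52 and 10.53 in its mock samples. No sample of either group overlapped with the other in any of the 8 sets. COX7A2L rose by 0.62 ± 0.03 log2 (SE, n = 24 each, limma adjusted p = 9.67e-26), 1.54-fold, between 0.54 and 0.73 in the sets, and was called in each set fitted alone.

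Other complex IV subunits changed less. COX8A fell by 0.28 (limma adjusted p = 1.43e-14), with no overlap of the groups in any set. COX5B rose by 0.20 on its brightest probe set (limma adjusted p = 1.52e-06), and its dimmest, at 0.06, was not called. COX7C rose by 0.12 on its brightest probe set and by 0.13 and 0.33 on its others. COX5A, COX6C and COX7B, with changes of -0.08, 0.06 and -0.02, were not called. COX4I1 rose by 0.06 (limma adjusted p = 0.00574), a call that was lost with centred arrays. In the 2 measured isoform pairs, the isoforms known from heart and muscle, COX6A2 and COX7A1, rose by 0.14 and 0.09 at levels below the median of all probe sets. COX6A1, the widely expressed partner, was not called at -0.03, and COX7A2 fell by 0.11. COX6B1 fell by 0.08. The calls of COX7A1, COX7A2 and COX6B1 were lost under several settings. NDUFA4, which the annotation lists as COXFA4 and which belongs to complex IV, fell outside the rule, and its change of -0.05 was not called (limma adjusted p = 0.351).

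ATP synthase had 8 higher and 10 lower of 27 probe sets (39.3% and 25.8% of all probe sets). The split was 5 and 12 with centred arrays and 14 and 7 after quantile normalization, so this balance turned with the scaling. Of the 5 genes of the F1 head, ATP5F1B and ATP5F1D fell, ATP5F1C rose and ATP5F1A and ATP5F1E were not called. This split of 1 higher and 2 lower was 0 and 2 with centred arrays and 3 and 1 after quantile normalization, where ATP5F1D was not called. ATP5F1B, the catalytic beta subunit, fell by 0.28 (limma adjusted p = 9.32e-14) without overlap of the groups in any set. ATP5PD, a subunit of the peripheral stalk, rose by 0.20 (limma adjusted p = 2.2e-09), also without overlap. In the same stalk ATP5PO rose by 0.08, while ATP5PF fell by 0.27 and ATP5PB fell by 0.07. The calls of ATP5PO and ATP5PB were lost with 1 value per set, that of ATP5PO also with centred arrays and that of ATP5PB after quantile normalization. ATP5MG and ATP5MJ, of the membrane part, were not called at -0.03 and -0.01. ATP5ME, also of the membrane part, fell by 0.24 (limma adjusted p = 2.44e-07) on its brightest probe set and by 0.26 on the other. ATP5F1D changed by between -0.46 and 0.13 over the sets on its dimmer probe set, with a difference between sets (limma adjusted p = 0.0311), and its brightest fell by 0.20.

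Subunit c, which forms the rotor ring, is encoded by 3 genes that yield the same mature protein, and these genes moved in different directions. ATP5MC1 had 8.32, 8.15 and 8.39 in imatinib samples of set A, against 8.90, 8.93 and 8.82 in its mock samples, and 9.46, 9.35 and 9.38 in imatinib samples of set B, against 9.90, 9.97 and 9.99 in its mock samples. ATP5MC1 had 8.63, 8.60 and 8.47 in imatinib samples of set C, against 9.40, 9.34 and 9.28 in its mock samples, and 8.42, 8.16 and 8.29 in imatinib samples of set D, against 9.01, 8.93 and 8.98 in its mock samples. The groups of ATP5MC1 were apart in these sets. ATP5MC1 had 8.19, 8.05 and 8.22 in imatinib samples of set E, against 8.71, 8.79 and 8.68 in its mock samples, and 8.75, 8.64 and 8.86 in imatinib samples of set F, against 9.06, 9.10 and 9.08 in its mock samples. ATP5MC1 had 9.12, 9.04 and 9.13 in imatinib samples of set G, against 9.67, 9.83 and 9.91 in its mock samples, and 8.87, 9.07 and 9.04 in imatinib samples of set H, against 9.43, 9.49 and 9.47 in its mock samples. No overlap was seen in any of the 8 sets, and the gap was smallest in set F. ATP5MC1 fell by 0.59 ± 0.03 log2 (SE, n = 24 each, limma adjusted p = 4.26e-22), to 66.7% of the mock level. ATP5MC3 fell by 0.27 (limma adjusted p = 4.21e-12) and by 0.18 on its other probe set. ATP5MC2 rose by 0.26 ± 0.04 (SE, n = 24 each, limma adjusted p = 3.2e-08), and its dimmer probe set rose by 0.17, with 0.71 in set C. Set differences ran between -0.77 and -0.32 for ATP5MC1, between -0.48 and -0.17 for ATP5MC3 and between 0.13 and 0.40 for ATP5MC2. Each probe set has its own response, so their levels cannot be added into a total of subunit c.

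**Figure D4:**
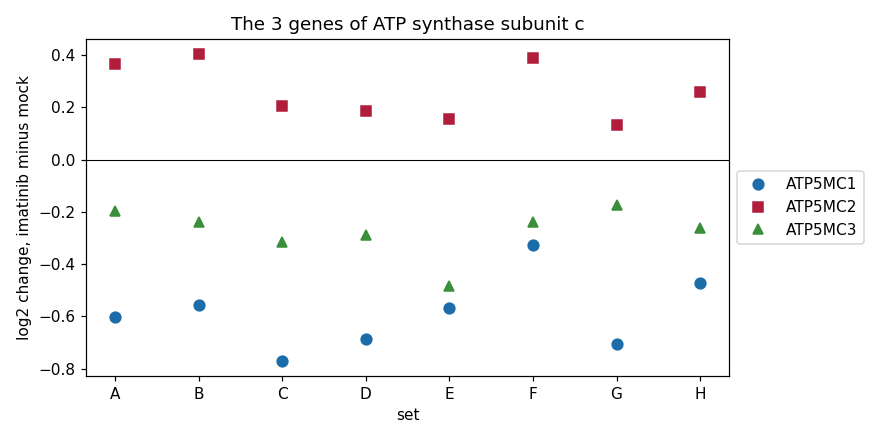
Log2 change (imatinib minus mock) of the 3 genes of ATP synthase subunit c in each of the 8 sets, 1 point per gene and set. ATP5MC2 lies above 0 and ATP5MC1 and ATP5MC3 below 0 in all 8 sets.

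Genes that build and supply the chain were read from lists beside the members. Of 29 measured assembly factors, which help to put the complexes together, 16 fell and 7 rose with a median of -0.12. After quantile normalization 13 fell and 8 rose, and with centred arrays 17 and 7. NDUFAF4, a complex I factor, fell by 1.38 (limma adjusted p = 2.41e-25), and COA4, a complex IV factor, fell by 0.70. ATPAF2, which helps to assemble the F1 head, rose by 0.86 (limma adjusted p = 6.36e-25), and by 0.30 on its dimmer probe set. Of 11 genes of ubiquinone synthesis, 5 fell and 1 rose (4 and 1 after quantile normalization), and PDSS1, which makes the side chain of ubiquinone, fell by 0.69. Of 7 other dehydrogenases that feed ubiquinone, 3 rose and 1 fell (4 and 2 after quantile normalization). SQOR, which oxidises sulphide, rose by 0.55 and DHODH, of pyrimidine synthesis, fell by 0.35, although the 2 dimmer DHODH probe sets were not called.

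Regulators of respiratory genes and of mitochondrial DNA fell for 10 and rose for 2 of 14 measured, with a median of -0.50, and these counts were the same with centred arrays and after quantile normalization. TFB2M, a mitochondrial transcription factor, averaged 7.11 in imatinib and 8.74 in mock samples and fell by 1.63 (limma adjusted p = 1.07e-23). TFAM, which packages and transcribes mitochondrial DNA, fell by 1.11 (limma adjusted p = 1.02e-23), and its other 2 probe sets fell by 1.41 and fell by 1.44. POLRMT, the mitochondrial RNA polymerase, fell by 0.84, and by 0.20 on its dimmer probe set. The factors behind the strings searched above were chosen after their values were seen. GABPA fell by 0.23, while GABPB1, also a listed regulator, rose by 0.18 on its brightest probe set and fell by 0.32 on its dimmer one. YY1 fell by 0.44 on its brightest probe set and by 0.44 and 0.18 on others, but its dimmest, at -0.004, was not called. NRF1 fell by 0.12 on its brightest probe set, while 2 of its 3 dimmer ones rose by 0.09 and 0.10. The call of the brightest NRF1 probe set was lost with 1 value per set. Among 7 carriers, porins and the ATP synthase inhibitor, 4 fell and 2 rose, and after quantile normalization 3 and 3. VDAC1, the main porin of the outer membrane, fell by 1.03 and by 1.07 on its next brightest probe set. The dimmest VDAC1 probe set, at -0.07, was not called. ATP5IF1, which inhibits ATP synthase running in reverse, rose by 0.68. The other listed genes were read in the same limma fit, with the same background of 27.1% lower and 41.6% higher genes.

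**Figure D5:**
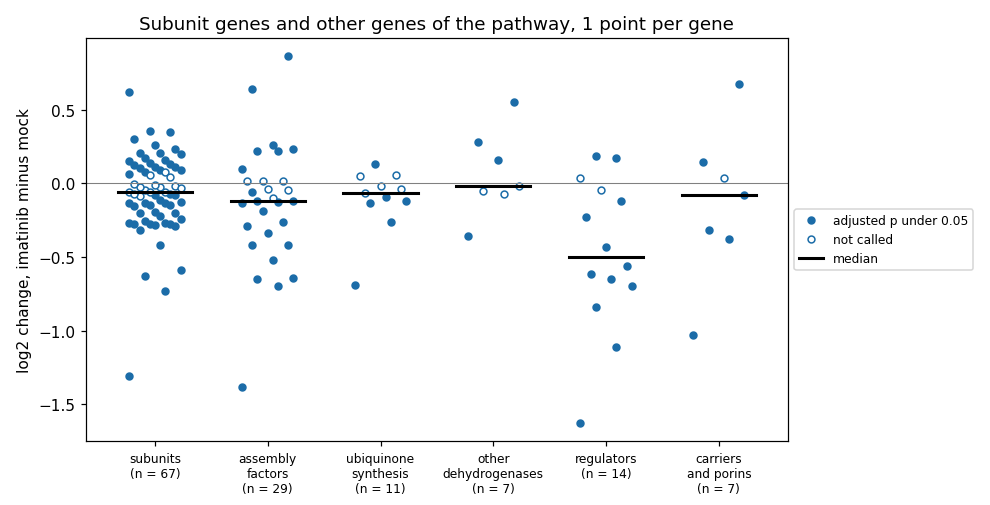
Log2 change (imatinib minus mock) of the 67 subunit genes and of 5 lists of other genes of the pathway, 1 point per gene by its brightest probe set, filled where adjusted p was under 0.05, with a bar at each median. The median is -0.06 for subunits, which turned to 0.05 after quantile normalization, and -0.50 for regulators, which was -0.44 there.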

How the data were processed

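RNA of 48 K562 samples was measured on Affymetrix arrays. The authors deposited 1 log2 value per probe set and sample; how background, summary and normalization were done is not given in the sources used here, and the log2 scale was read from the values (2.41 to 14.9), which were not rescaled. Tests left out 68 control probe sets. Names came from the platform annotation, with symbols updated from RefSeq (GRCh38.p14); 19065 probe sets had 1 symbol, 1043 several and 2107 none. A gene was represented by its brightest probe set.

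Tests were two-sided limma 3.58.1 fits in R 4.3.3 over all 22215 probe sets, with Benjamini-Hochberg adjustment at 0.05: a combined fit with the set as a factor, 1 fit per set (3 against 3), and set-by-treatment terms. The array number limits precision. Figures were drawn with matplotlib 3.10.9.

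Members, lists and motifs were chosen with earlier results of these data known. Members were named by rule: per complex, up to 4 largest rises and 4 largest falls called with the same sign in 8 sets; all complex II genes, CYCS, CYC1, isoform pairs, genes with opposing probe sets or a difference between sets; and up to 3 of each list. Other named genes are marked or complete a count.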

Additional observations from a re-analysis of the deposited data

Results flagged for a closer look

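The change after imatinib differed between the 8 sets for 3 of the 100 member probe sets, by the limma test of the set-by-treatment terms, against 7.2% of all probe sets. CYCS had the second smallest p of the 3 (limma adjusted p = 0.0396435), with a fall that was largest in set E, at -1.77, and smallest in set G, at -0.92. ATP5MC1, a gene of ATP synthase subunit c, fell by 0.77 log2 in set C and by 0.32 in set F (limma adjusted p = 0.0466876). The dimmer probe set of ATP5F1D, the delta subunit of the F1 head, changed by -0.46 in set F and by 0.13 in set B (limma adjusted p = 0.0310646), and its brightest probe set just missed the threshold (limma adjusted p = 0.0504). With centred arrays 1 member passed this test, and with the replicate number as a block 1.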

How the results depend on the processing

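With centred arrays complex I had 7 higher members, complex IV 5 lower, complex V 5 higher, set F 9 called and 1 member differed between sets. After quantile normalization 20 members were lower, 9 in complex I and 1 in complex IV, while complex V had 14 higher, set E had 28 called, set G 25 and set H 31. Under quantile normalization COX6A1 turned to 0.046, COX6B1 to 0.027, COX7A2 to 0.0037, NDUFB8 to 0.022 and SDHD to 0.0102, none of them called. Counted as genes, 22 members were higher: 7 in complex I, 2 in II, 3 in III, 6 in IV and 4 in V. Complex IV had 1 lower member with 1 value per set and 1 without set E. Set G had 23 called with dim probe sets left out, 30 with an intensity trend and 8 with the replicate number as a block; with that block the combined counts were 40 higher and 34 lower, 1 member differed between sets, and 0 of the 34 named members changed its call. Same-numbered imatinib and mock samples of a set correlated at a median of 0.02 over 24 pairs, with values from -0.52 to 0.49. Differently numbered ones correlated at a median of -0.03 over 48 pairs. Whether the numbers pair samples in any single set was not tested. Leaving out a replicate gave 39 to 43 higher and 32 to 37 lower members in the combined fit (complex I 10 to 11 and 17 to 19, II 5 to 6 and 0, III 5 and 2 to 4, IV 11 to 12 and 3 to 4, V 8 to 10 and 9 to 11). Within sets it gave 18 to 25 in A, 24 to 39 in B, 22 to 36 in C, 19 to 37 in D, 6 to 37 in E, 9 to 16 in F, 7 to 24 in G and 11 to 23 in H. The count moved by over 1.5 times to 24 without B mock replicate 2, 22 and 24 without C mock replicates 2 and 3, 19 without D imatinib replicate 2, 9 without F mock replicate 1 and 11 without H mock replicate 1. In set E it moved to 37 without imatinib replicate 1, 6 without imatinib replicate 3 and 7 without mock replicate 1 or 2. In set G it moved to 24 without mock replicate 2, and to 7, 9 and 8 without imatinib replicates 1, 2 and 3. By brightest probe set, 9 member genes lost their call with 1 value per set (ATP5PB, ATP5PO, COX4I1, COX6B1, COX7A1, COX7A2, NDUFS3, UQCRC1 and UQCRC2), 7 with centred arrays and 13 after quantile normalization. The cause of these shifts was not tested. CYCS, NDUFS6, NDUFS1, NDUFAB1, ATP5MC1 and COX7A2L kept their direction and call under each alternative run.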
